A study of Macaca mulatta with 304 samples.

Results

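The genes of the constitutive proteasome were followed in whole blood of rhesus macaques (Macaca mulatta) before and after irradiation of the thorax. The 26S proteasome is the protease that degrades proteins tagged with ubiquitin. Its 20S core is a barrel of α subunits (PSMA genes), which gate the entrance, and β subunits (PSMB genes), of which PSMB5, PSMB6 and PSMB7 carry the catalytic sites. The 19S cap has a base of ATPases (PSMC genes) that unfold the substrate, and further base and lid proteins (PSMD genes) that bind ubiquitin chains and remove them. In blood the proteasome is also known for its role in red cell precursors, which clear most of their proteins and organelles as they mature, and for an immune form in which PSMB8, PSMB9 and PSMB10 take the catalytic places.

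Members were the genes whose symbols begin with PSMA, PSMB, PSMC or PSMD followed by a digit, without PSMB8, PSMB9 and PSMB10. Of 37 such symbols, 35 passed the count filter, which asks for 3 or more counts in 80% or more of the libraries, out of 13751 genes that passed and 21070 in the table. Each of the 35 had 3 or more counts in every library, and the member nearest the limit, PSMC3IP, had 13 to 271 counts (median 107.5). The other 2 symbols, PSMB11 (the β subunit of the thymus) and PSMA8 (the α subunit of the testis), reached 3 counts in 8 samples and in 0 samples. The members comprised 7 α subunits, 7 β subunits, 6 base ATPases, 3 other base subunits, 8 lid subunits and 3 chaperones of base assembly (PSMD5, PSMD9 and PSMD10). The last member, PSMC3IP, is taken in by its symbol only: it encodes HOP2, a cofactor of meiotic recombination, and is no part of the proteasome.

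The animals were 28 healthy adults of the Chinese sub-strain aged 3 to 5 years, 14 females and 14 males, and both dose groups received irradiation of the thorax. The lower dose (LD, 9.8 Gy) group had 12 animals with 151 irradiated samples, and the higher dose (HD, 10.7 Gy) group had 16 animals with 129 irradiated samples. Control libraries of Day -2 were analysed for 24 of the animals, and each of these animals served as its own control. Samples were placed in an early window (Day 3 to 21, 132 samples), a medium window (after Day 21 to Day 90, 95 samples) and a late window (after Day 90, 53 samples of 16 animals, of which 14 had a control). Late samples came from the animals that were still alive, and the number of late draws differed between animals. The medium and late windows also held draws between the scheduled days. The paper states that sick animals euthanized between scheduled draws gave a last sample. All animals received tramadol or buprenorphine against pain in the weeks after irradiation, and dexamethasone was given to animals with fast breathing. Which samples were drawn under dexamethasone was not analysed here.

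The library totals lay between 2840219 and 23638161 counts (median 8227563), and the 35 members together held 3670 to 42125 counts. Numbers in the library names fall into 3 ranges, called series A, B and C, whose meaning is not given in the sources used here. Of the control samples 20 were of series A and 4 of series C, whereas every medium and late sample was of series B or C. For most animals series and window therefore cannot be told apart after Day 21. Dose and series also overlapped: the early and control libraries of LD animals were all of series A, whereas 4 of the 12 HD controls were of series C and the HD libraries of Day 21 were all of series B or C. One HD library of Day 40 stood apart with the lowest scaling factor (0.379). No 2 libraries held identical values. Markers of 7 blood cell types were used only where they passed the count filter, so their detection was set by that filter. Of the listed markers, CMTM2 did not pass it, and FCN1, CD27 and PF4 were not in the count table.

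Before irradiation the members differed widely in level (plot of levels before irradiation). Levels are given as CPM (counts scaled to a common library size) scaled by the upper quartile and, between genes, as CPM per kb of exon. PSMB4 was highest with a median of 77.0 CPM per kb over 24 animals, followed by PSMB3 (63.8) and PSMA7 (59.1). The lowest subunit was the lid protein PSMD12 with 6.85 CPM per kb, and PSMC3IP lay lower still with 3.28. The range between the highest and lowest member was 23.5-fold. These ranks and this range depend on the exon length used, which joins all annotated exons of a gene. Without division by length, PSMD12 (4.57 kb) had a median of 31.3 CPM, above PSMB6 (0.866 kb) with 26.8 CPM. The β ring had the highest class median (46.1 CPM per kb), against 27.4 for the α ring, 23.6 for the base ATPases and 23.8 for the lid. The 3 catalytic subunits had the lowest medians of the β ring, with 21.1 for PSMB5, 31.0 for PSMB6 and 31.6 CPM per kb for PSMB7. PSMB6 (21.3 to 50.2) and PSMB7 (17.2 to 45.4) overlapped over most of their ranges. Between animals the coefficient of variation of a member was 10.1% (PSMD1) to 35.9% (PSMA6), with a median of 19.5%. PSMA6, PSMA2, PSMD9 and PSMC6 varied most, each with a coefficient of variation over 30%.

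**Figure D1:**
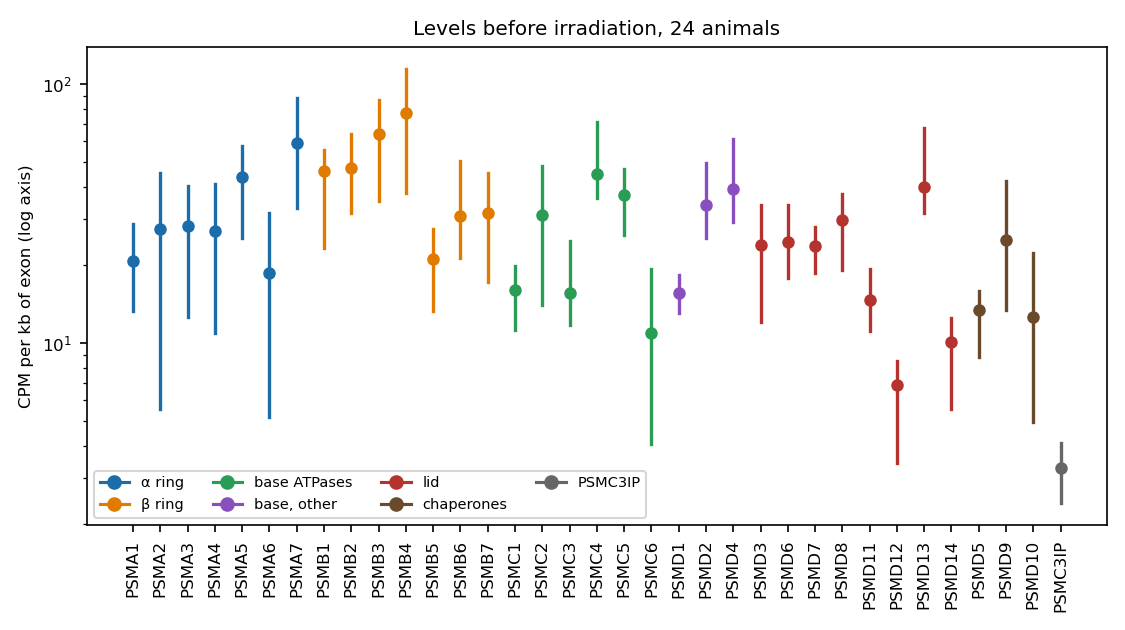
Level of each member before irradiation in CPM per kb of exon (log axis), with the median (point) and the lowest and highest (line) of 24 control samples, coloured by position in the complex. PSMB4 is highest at 77.0 and PSMC3IP lowest at 3.28 CPM per kb.

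Promoters are shown for PSMD9, the member with the largest early increase, and PSMC3, the member with the largest late decrease. Each line gives the 250 bases before the RefSeq gene start in Mmul_10, read 5′ to 3′ on the strand of the gene, with capitals at matches to any of the motifs counted.
PSMD9, chr11:121735330-121735579, plus strand: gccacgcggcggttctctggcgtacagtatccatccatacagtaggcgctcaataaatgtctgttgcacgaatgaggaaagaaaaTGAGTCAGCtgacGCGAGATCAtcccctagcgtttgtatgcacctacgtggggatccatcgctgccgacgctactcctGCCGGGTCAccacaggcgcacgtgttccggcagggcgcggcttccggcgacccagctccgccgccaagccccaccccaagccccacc
PSMC3, chr14:18334459-18334708, plus strand: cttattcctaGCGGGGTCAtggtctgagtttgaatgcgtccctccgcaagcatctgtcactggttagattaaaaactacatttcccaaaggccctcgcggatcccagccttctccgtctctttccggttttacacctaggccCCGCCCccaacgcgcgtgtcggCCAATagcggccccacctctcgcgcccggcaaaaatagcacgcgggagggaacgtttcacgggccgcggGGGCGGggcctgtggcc
The motifs were TGANNNNGC (the core of the antioxidant response element, which NFE2L1 and NFE2L2 bind), CCAAT (the site of the factor NF-Y), GGGCGG (the GC box that SP1 binds), TATAAA (the box of core promoters) and AGATAA (a form of the GATA motif, added after the values were seen), each on both strands and overlaps included. TGANNNNGC was present in 18 of 35 member promoters (51.4%) and in 33.8% of 13723 promoters of tested genes. The shares were 31.4% and 31.3% for CCAAT, 48.6% and 51.5% for GGGCGG, 8.57% and 7.29% for TATAAA and 8.57% and 6.91% for AGATAA. The PSMD9 window held 3 matches to TGANNNNGC and none to the other motifs. The PSMC3 window held 1 match to TGANNNNGC, 1 to CCAAT and 2 to GGGCGG. These are matches of letters, and no test was made of them.

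The early window addressed how gene expression in blood changed in the weeks just after irradiation. Here more members rose than fell. Tested in edgeR by quasi-likelihood, with each animal as its own block, 16 of 35 members were called higher (45.7%, against 21.1% of all genes) and 2 lower (5.71%, against 27.9% of all genes) at an adjusted p of at most 0.05. The median log2 fold change of the members was 0.13, against -0.02 for all genes, and the middle 50% of members lay between 0.04 and 0.31. Changes were small. Only PSMD9 passed a fold of 1.5, a size that 5.79% of all genes passed upwards and 1.75% downwards, where no member lay. TMM scaling gave 20 members higher and 1 lower.

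PSMD9, a chaperone that helps assemble the base, had the largest early change. Its CPM per animal was 15.4 (lowest), 28.7 (median) and 48.7 (highest) in the 24 control samples and 28.1, 60.9 and 129 in the early window. The groups overlapped, but the level was higher in 23 of 24 animals, by a log2 fold change of 1.03 ± 0.09 (SE; edgeR adjusted p = 1.8e-10). The other chaperones moved less: PSMD10 had a log2 fold change of 0.22 ± 0.09 (adjusted p = 0.055) and PSMD5 one of 0.08 ± 0.04 (adjusted p = 0.11).

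In the base, 3 of 6 ATPases rose and none fell. PSMC2 went from a median of 50.4 CPM (22.7 to 78.2) to 69.1 CPM (49.7 to 119) and was higher in 22 of 24 animals (log2 fold change 0.50 ± 0.09, edgeR adjusted p = 3.2e-05). PSMC6 (0.44 ± 0.11) and PSMC5 (0.29 ± 0.05) also rose, whereas PSMC4 had the lowest value of the ATPases (log2 fold change -0.04 ± 0.05, adjusted p = 0.46). Of the other base subunits, PSMD4, a receptor for ubiquitin chains, rose from a median of 54.4 CPM (40.8 to 85.0) to 70.4 CPM (54.8 to 109) in 21 of 24 animals (log2 fold change 0.40 ± 0.06, edgeR adjusted p = 3.8e-06). The scaffold PSMD2 had a log2 fold change of -0.11 ± 0.05 (adjusted p = 0.067). Of the 9 base genes, 4 were thus called higher and the rest were not called.

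In the core, 5 of 7 α subunits and 4 of 7 β subunits rose and none fell. The class medians of the log2 fold change were 0.32 and 0.13. PSMA6 had the highest value of the α ring (0.43 ± 0.11, higher in 16 of 24 animals) and PSMA5 the lowest (0.04 ± 0.05, adjusted p = 0.47). Of the catalytic subunits only PSMB6 was called, and differences between genes were not tested. PSMB6, the caspase-like subunit, rose from a median of 27.1 CPM (18.7 to 43.9) to 37.3 CPM (26.6 to 55.2) and was higher in 21 of 24 animals (log2 fold change 0.39 ± 0.07, edgeR adjusted p = 2.8e-05). PSMB7, the trypsin-like subunit, had a log2 fold change of 0.13 ± 0.07 (adjusted p = 0.12), and PSMB5, the chymotrypsin-like subunit, one of -0.04 ± 0.05 (adjusted p = 0.56).

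The lid had a class median of 0.04. PSMD14, the enzyme that cuts ubiquitin from the substrate, had a log2 fold change of 0.22 ± 0.09 but was higher in only 13 of 24 animals (edgeR adjusted p = 0.032), and PSMD6 rose by 0.16 ± 0.05. PSMD11 fell by 0.11 ± 0.04 on the log2 scale in 18 of 24 animals (adjusted p = 0.016); it was not called with TMM scaling, without the replicate block or with library series as a covariate. PSMC3IP fell by 0.26 ± 0.05 on the log2 scale, from a median of 13.7 to 11.3 CPM, in 22 of 24 animals (edgeR adjusted p = 0.00016). Of the 18 early calls, 13 of the higher ones and PSMC3IP were also called, in the same direction, under each of the other settings tried for this window.

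**Figure D2:**
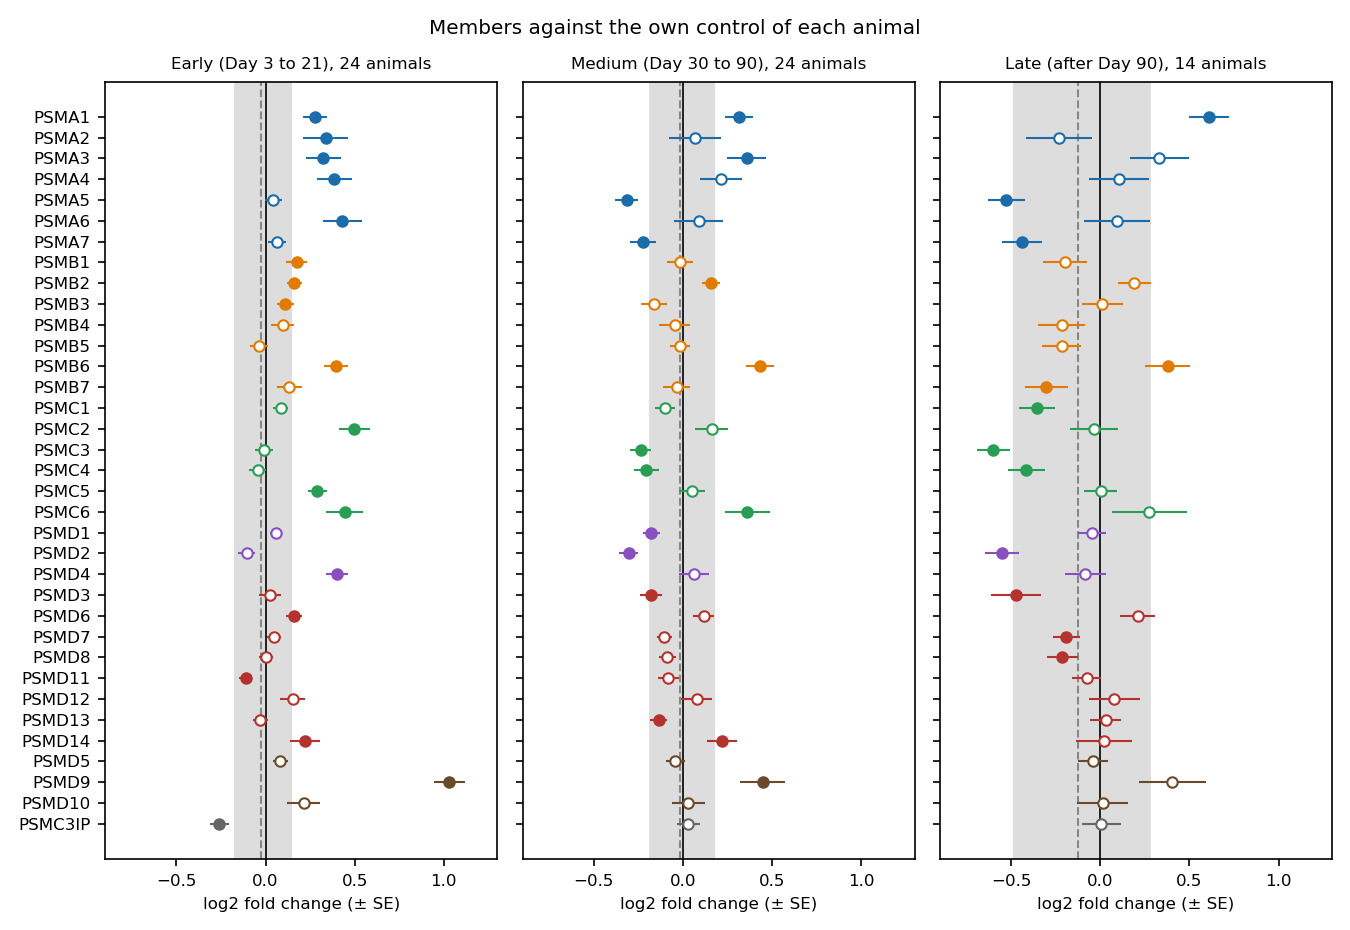
Log2 fold change ± SE of each member against the own control of each animal in the early, medium and late window, with filled points where the adjusted p was at most 0.05, grey bands for the middle 50% of all 13751 genes and a dashed line at their median. PSMD9 lies apart on the right in the early window (1.03), and PSMC3 (-0.60), PSMD2 (-0.55) and PSMA5 (-0.53) lie lowest in the late window.

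Cell type markers moved in the same window. All 20 erythroid markers rose (median log2 fold change 1.63), and their summed level went from 2066 to 13660 CPM per sample in control samples (median 7050) to 4340 to 100299 CPM in early samples (median 19543). All 10 B cell markers fell (median log2 fold change -0.995; summed median 1469 CPM before and 638 CPM after). Of the other lists, 6 of 9 monocyte markers and 6 of 7 platelet markers rose, 4 of 8 markers of cytotoxic lymphocytes fell, 3 of 11 T cell markers rose and 2 fell, and 1 of 11 neutrophil markers rose and 1 fell. In whole blood fewer cells of a type and less RNA per cell cannot be told apart, and the part of these shifts in the changes of the members was not tested.

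The difference between the doses was tested on the early change of 12 LD and 12 HD animals. No member was called as different between the doses by edgeR (0 of 35, lowest adjusted p 0.860), and no gene of the table was (0%). At an unadjusted p under 0.05 there were 2 of 35 members and 761 of 13751 genes, and DESeq2 also called 0 members (3 at an unadjusted p under 0.05). The largest differences, HD minus LD on the log2 scale, were 0.47 ± 0.24 for PSMA2, 0.46 ± 0.17 for PSMD10 and 0.37 ± 0.16 for PSMC2. PSMD10 changed by 0.48 ± 0.51 (SD) in HD animals and by -0.01 ± 0.36 in LD animals. The SD was above the difference in HD animals and below it in LD animals. For PSMD9 the difference was -0.02 ± 0.18, with mean changes of 1.03 ± 0.38 (SD) in HD and 1.04 ± 0.54 in LD animals. Dose is partly confounded with library series here. Within series A, without Day 21 (8 HD and 12 LD animals), 0 members and 0 genes were called by edgeR, with 0 members and 341 genes at an unadjusted p under 0.05. There the differences were 0.29 ± 0.16 for PSMD10, 0.19 ± 0.13 for PSMC2, 0.17 ± 0.20 for PSMA2 and -0.02 ± 0.20 for PSMD9. Between 12 females and 12 males 0 members were called as different by edgeR or DESeq2 (0% of all genes). By edgeR 0 members and 123 genes had an unadjusted p under 0.05. The member differences, female minus male, lay between -0.19 ± 0.25 (PSMA2) and 0.13 ± 0.14 (PSMB6) on the log2 scale (± SE).

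The 15 sampling days with at least 6 animals showed that the early increase was not uniform (heat map of each day against control). In the following counts the share of all genes called in the same direction is given in parentheses. On Day 3, 14 members were higher (21.6%) and 1 lower (32.3%). Day 6 had 15 higher (16.8%) and 1 lower (27.8%), Day 9 had 14 (25.7%) and 5 (24.4%), and Day 15 had 13 (15.9%) and 3 (24.7%). Day 21 had the most, with 19 members higher (26.9%) and 4 lower (25.4%). On Day 30 the counts were equal, 7 higher (11.2%) and 7 lower (14.8%). The HD libraries of Day 21 were of series B or C and all libraries of Day 30 of series C, whereas most controls were of series A. For most animals day and series cannot be told apart on Day 30. Day 40 followed with 4 higher (18.2%) and 6 lower (25.7%), Day 60 with 2 (7.51%) and 5 (12.2%), and Day 90 with 4 (9.62%) and 2 (12%). Later days had between 6 and 12 animals. There were 1 higher (17.2%) and 7 lower (27.4%) on Day 120, 2 (14.7%) and 6 (22.7%) on Day 150, and 5 (11.7%) and 0 (13.9%; 10 members at an unadjusted p under 0.05 in either direction, and 0 lower by DESeq2) on Day 180. The higher counts of these days depended on the setting, with 3 by TMM, 4 by DESeq2 and 10 with library series as a covariate on Day 120, and 9 with the covariate on Day 150. Day 210 had 2 higher (17.9%) and 15 lower (24.5%), Day 240 had 2 higher (3.26%) and 0 lower (3.51%), and Day 270 had 0 in both directions (0% higher and 0.00727% lower by edgeR). At an unadjusted p under 0.05 edgeR gave 11 members on Day 240 and 6 on Day 270, and DESeq2 called 5 higher and 1 lower on Day 240 and 2 higher and 1 lower on Day 270. With the covariate 9 members were higher on Day 90, 13 on Day 240 and 6 on Day 270, and 7 on Day 15 and 3 on Day 30.

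PSMD9 was high up to Day 30 and again from Day 180 to Day 240. On Day 15 its CPM was 29.5 (lowest), 79.6 (median) and 291 (highest), above the own control in 24 of 24 animals (log2 fold change 1.49 ± 0.13, edgeR adjusted p = 1.7e-10). It was still higher in 24 of 24 animals on Day 30 (1.03 ± 0.12), and on Day 90 it was back at 11.9 to 79.1 CPM with a median of 25.7 (log2 fold change -0.18 ± 0.16, adjusted p = 0.46). On Day 240 it was higher in all 6 animals (32.8 to 219 CPM, log2 fold change 1.28 ± 0.25, edgeR adjusted p = 0.016), and on Day 270 the change of 1.33 ± 0.34 did not pass (adjusted p = 0.075). ALAS2, the enzyme that starts heme synthesis in red cell precursors, had log2 fold changes of 2.30 ± 0.21 on Day 15, -0.61 ± 0.31 on Day 90 and 1.54 ± 0.40 on Day 240 in the same animals. The summed erythroid markers had medians of 27732 CPM on Day 15, 4826 CPM on Day 90 and 17324 CPM on Day 240, and their part in the course of PSMD9 was not tested.

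PSMC2, PSMC5 and PSMD4 were also highest early. PSMD4 reached a log2 fold change of 0.61 ± 0.09 on Day 15, was called higher on 6 days, all up to Day 30, and was lower in none. PSMC2 was called on the same 6 days with a highest value of 0.63 ± 0.12 on Day 21, and PSMC5 on 5 of them. In contrast PSMB6 was higher on 11 of 15 days, from 0.35 ± 0.07 on Day 3 to 1.03 ± 0.20 on Day 240, when the level was 30.0 to 76.4 CPM in 6 animals whose controls had 18.5 to 27.1 CPM. These 2 groups did not overlap. PSMA1 was also higher on 11 days, with a highest value of 0.85 ± 0.15 on Day 150 (9 of 9 animals, 51.6 to 75.7 CPM against 26.5 to 51.7 CPM before irradiation). PSMC3IP was low only on the earliest days: its log2 fold change was -0.47 ± 0.08 on Day 3 and -0.47 ± 0.09 on Day 6, lower in 21 of 24 animals on each, and -0.13 ± 0.06 on Day 9 (adjusted p = 0.081). PSMB5 changed direction, with 0.18 ± 0.05 on Day 3, -0.25 ± 0.07 on Day 9 and -0.14 ± 0.05 on Day 15, all past the threshold.

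**Figure D3:**
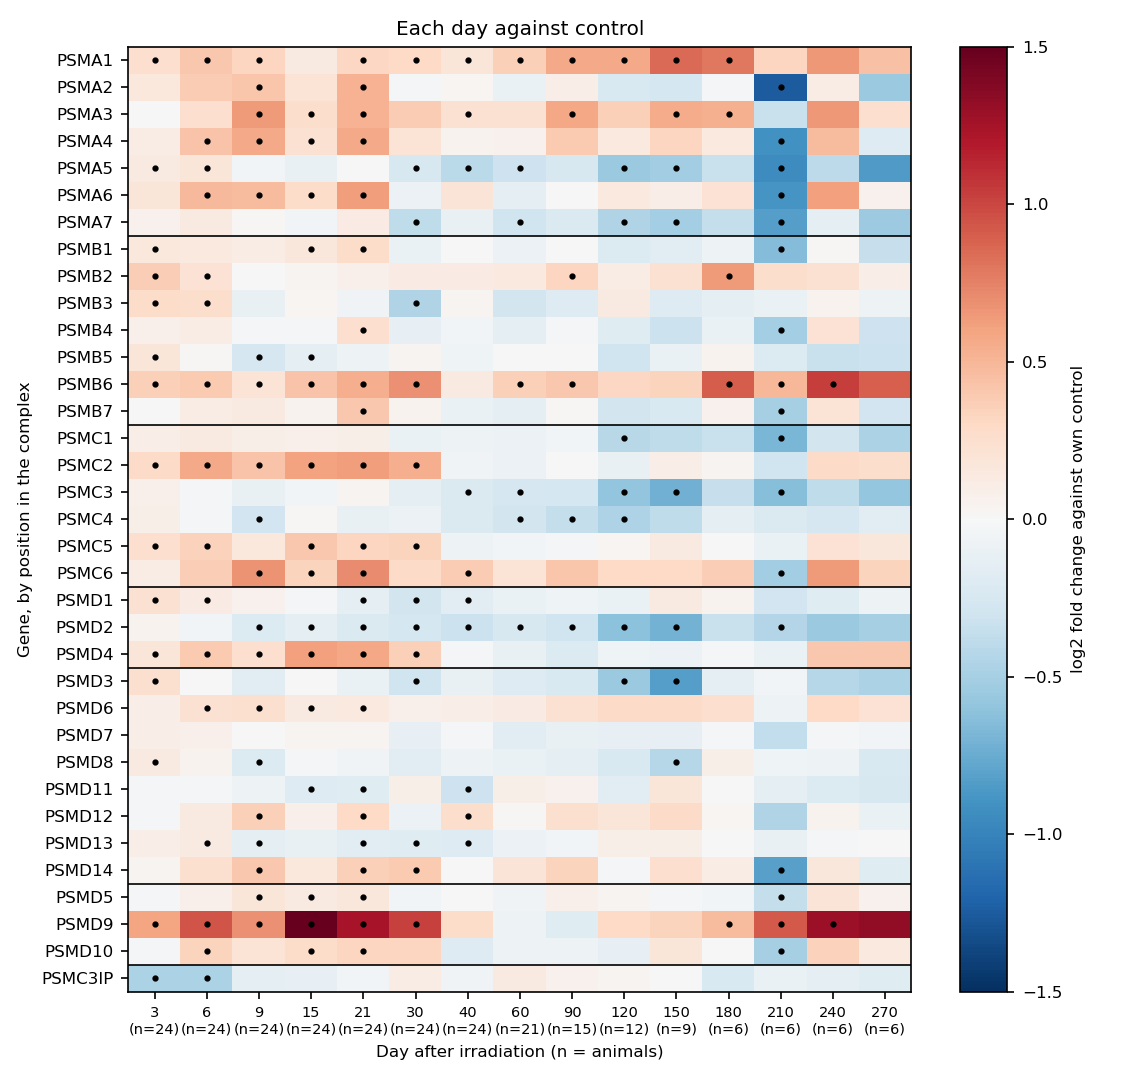
Log2 fold change of each member against the own control on 15 days (columns, with the number of animals) in colour, with a dot where the adjusted p was at most 0.05, ordered by position in the complex. The PSMD9 row is darkest on Day 15 (1.49), the PSMB6 and PSMA1 rows are red almost throughout, and Day 210 is blue for most of the α ring, with PSMA2 at -1.24.

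Day 210 stood apart. The median log2 fold change of the members was -0.33, against -0.13 for all genes. The members held 0.112% of all counts (median of 6 samples), against a median of 0.166% over all 24 control samples. In the α ring 5 of 7 genes fell, with a class median of -0.89. PSMA2 had 12.8 to 25.4 CPM in 6 samples (median 16.1) and 25.5 to 51.4 CPM in the controls of the same animals (log2 fold change -1.24 ± 0.13, edgeR adjusted p = 8e-05), so that the groups did not overlap. PSMA5 (-0.95 ± 0.14), PSMA4 (-0.91 ± 0.15) and PSMD14 (-0.81 ± 0.19) were lower in all 6 animals too. PSMD9 (0.92) and PSMB6 (0.49) were the 2 members called higher on that day. All 6 samples were of series C, and 5 of the 6 animals were LD.

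In the medium window the members were divided. By edgeR 7 of 35 were higher (20%, against 19.9% of all genes) and 8 lower (22.9%, against 25.4%), close to the background in both directions, and the median log2 fold change was -0.02 for the members and for all genes. PSMD9 had the highest value (0.45 ± 0.13, edgeR adjusted p = 0.0058), followed by PSMB6 (0.43 ± 0.08), PSMC6 (0.36 ± 0.13), PSMA3 (0.36 ± 0.11), PSMA1 (0.32 ± 0.08) and PSMD14 (0.22 ± 0.09), and PSMB2 rose by 0.16 ± 0.05. PSMA5 was lowest (-0.32 ± 0.07, lower in 20 of 24 animals), but in the 4 animals with a control of the same library series its value turned to 0.19. PSMD2 fell in 22 of 24 animals from a median of 105 to 83.0 CPM (log2 fold change -0.30 ± 0.05, edgeR adjusted p = 3.7e-05). PSMC3, PSMA7, PSMC4, PSMD3, PSMD1 and PSMD13 made up the rest of the lower members. In their classes PSMB3 (-0.16 ± 0.07) and PSMD5 (-0.04 ± 0.05) had the lowest values without passing the test, and PSMB5 and PSMB7 had -0.02 ± 0.06 and -0.04 ± 0.08. With library series as a covariate 0 members were higher and 1 lower, and in the 4 animals with a control of the same series 6 were higher and 0 lower. These 4 animals were all HD, and not all of them had draws after Day 40. The setting thus differs from the main fit in dose, days and number of animals as well as in series. TMM scaling gave 8 higher and 6 lower. No medium call held under each setting tried. The counts were 7 and 8 also without the Day 40 library that stood apart. Of the cell type markers, 19 of 20 erythroid (median log2 fold change 0.71), 6 of 9 monocyte, 5 of 11 neutrophil and 2 of 7 platelet markers rose in this window, and 1 neutrophil marker fell. At the same time 9 of 10 B cell (-0.59) and 8 of 11 T cell markers (-0.31) fell, and of 8 markers of cytotoxic lymphocytes 2 rose and 4 fell. Their part in the changes of the members was not tested.

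In the late window PSMA1 and PSMB6 rose and 10 members fell. The 2 higher members were 5.71% of 35, against 21.8% of all genes, and the 10 lower members 28.6%, against 33.5%. Past a fold of 1.5 there was 1 member in each direction, PSMA1 and PSMC3, against 14% of all genes upwards and 18.5% downwards. The median log2 fold change was -0.04 for the members and -0.13 for all genes. This balance depended on the scaling: with TMM or DESeq2 size factors 6 members were higher and 7 lower, and the median of all genes moved from -0.13 to -0.03 and -0.01. Relative to the median of all genes, the members lay higher by 0.09, 0.09 and 0.08 with the 3 scalings.

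PSMA1 had a CPM per animal of 24.9 (lowest), 36.9 (median) and 54.0 (highest) in 14 control samples and 48.8, 55.3 and 79.1 in the late window. It was higher in 13 of 14 animals (log2 fold change 0.61 ± 0.11, edgeR adjusted p = 0.00021). PDE3B, a gene annotated over PSMA1 on the opposite strand, had a log2 fold change of -0.44 ± 0.10 in the same samples. PSMB6 rose in 11 of 14 animals (0.38 ± 0.13, edgeR adjusted p = 0.016). PSMD9 had 0.40 ± 0.19 and was higher in 8 of 14 animals (adjusted p = 0.073), and PSMC6 (0.28 ± 0.21) and PSMD6 (0.21 ± 0.10), the highest of the ATPases and the lid, did not pass either.

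The base ATPase PSMC3 had the largest decrease. Its CPM was 19.6 to 41.3 (median 26.9) in control samples and 13.9 to 24.1 (median 18.1) in the late window, and it was lower in all 14 animals (log2 fold change -0.60 ± 0.09, edgeR adjusted p = 4.2e-05). PSMD2 was also lower in all 14 animals, from 79.2 to 153 CPM (median 107) to 63.5 to 85.6 CPM (median 73.1), a log2 fold change of -0.55 ± 0.09 (edgeR adjusted p = 0.00012). PSMA5 fell in 13 of 14 animals (-0.53 ± 0.10), PSMD3 in 12 (-0.47 ± 0.14), PSMA7 in 13 (-0.44 ± 0.11), PSMC4 in 12 (-0.42 ± 0.10) and PSMC1 in 12 (-0.35 ± 0.10). The decreases of PSMB7 (-0.30 ± 0.12), PSMD8 (-0.21 ± 0.09) and PSMD7 (-0.19 ± 0.08) were smaller. NEK6, annotated over PSMB7 on the opposite strand, had a log2 fold change of 1.03 ± 0.13. PSMB5 had -0.22 ± 0.11 (adjusted p = 0.10), PSMD14 0.02 ± 0.16, PSMD4 -0.09 ± 0.11 and PSMC3IP 0.01 ± 0.11, and PSMD5, the lowest chaperone, -0.04 ± 0.08. PSMA1 and 6 of the lower members (PSMA5, PSMC1, PSMC3, PSMC4, PSMD2 and PSMD3) were called in the same direction under each other setting tried. The fits that left out 1 animal at a time were not part of this count.

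Without Day 210, 2 members were higher and 7 lower in the late window. Leaving out 1 of the 14 animals at a time left 2 to 3 higher and 7 to 12 lower. Cell type markers moved here too: all 10 B cell markers (median log2 fold change -1.98) and all 11 T cell markers (-0.77) fell, 10 of 11 neutrophil markers (1.11) and all 7 platelet markers (0.81) rose, and of 20 erythroid markers 9 rose and HBB fell. Of 9 monocyte markers 6 rose and 1 fell, and of 8 markers of cytotoxic lymphocytes 4 fell. The summed B cell markers went from 353 to 2599 CPM in control samples to 52.8 to 959 CPM in late samples, and the part of these shifts in the changes of the members was not tested.

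**Figure D4:**
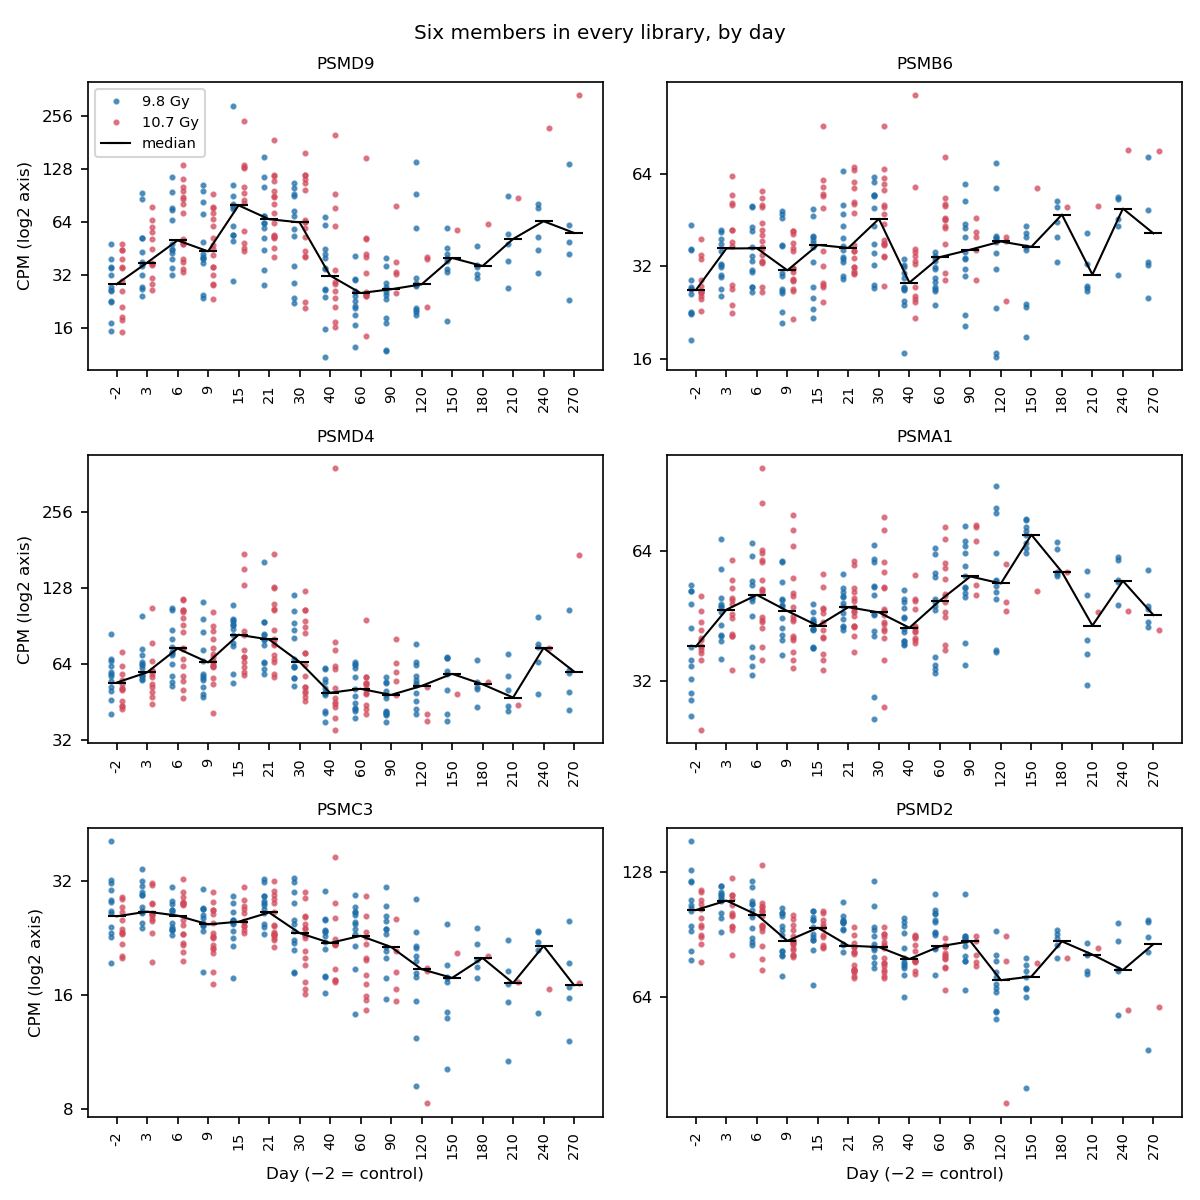
CPM (log2 axis) of PSMD9, PSMB6, PSMD4, PSMA1, PSMC3 and PSMD2 in every library by day, coloured by dose, with the median of each day as a line. PSMD9 peaks on Day 15 (median 79.6 in the 24 animals compared) and returns, PSMA1 is highest on Day 150, and PSMC3 is called lower on Day 40, 60, 120, 150 and 210.

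The late and early windows were also compared directly in the 16 animals that had both, without use of the control samples. By edgeR 2 members were higher in the late window (5.71%, against 25% of all genes) and 18 lower (51.4%, against 44.7%). Past a fold of 1.5 no member was higher (12% of all genes; 0 by edgeR, with 2 at an adjusted p of at most 0.05) and 2 were lower, PSMD9 and PSMC3 (5.71%, against 20.2%). The median log2 fold change was -0.25 for the members and -0.18 for all genes, and TMM and DESeq2 gave 5 higher with 16 lower and 6 higher with 14 lower. PSMD9 fell by 0.80 ± 0.21 on the log2 scale in 13 of 16 animals, from a median of 63.6 to 34.7 CPM (edgeR adjusted p = 0.0022). PSMC3 was lower in all 16 animals (-0.61 ± 0.08), from 21.5 to 30.1 CPM to 8.3 to 24.1 CPM, and PSMA5 in 15 (-0.58 ± 0.07). PSMC2 (-0.58 ± 0.13) and PSMD4 (-0.57 ± 0.12), high in the early window, were lower as well. In the base, 5 of 6 ATPases fell. PSMC3IP (0.30 ± 0.08, 14 of 16 animals) and PSMA1 (0.27 ± 0.06, 14 of 16 animals) were the 2 higher members. Of the 18 lower members 10 were called lower under each setting tried, and neither of the 2 higher ones was. In the same comparison 17 of 20 erythroid markers (median log2 fold change -1.07), all 11 T cell (-0.86) and all 10 B cell markers (-1.07) fell, with 3 of 8 markers of cytotoxic lymphocytes, and 10 of 11 neutrophil markers rose (1.40). Of 9 monocyte markers 3 rose and 2 fell, and 2 of 7 platelet markers rose. The part of these shifts in the changes of the members was not tested.

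**Figure D5:**
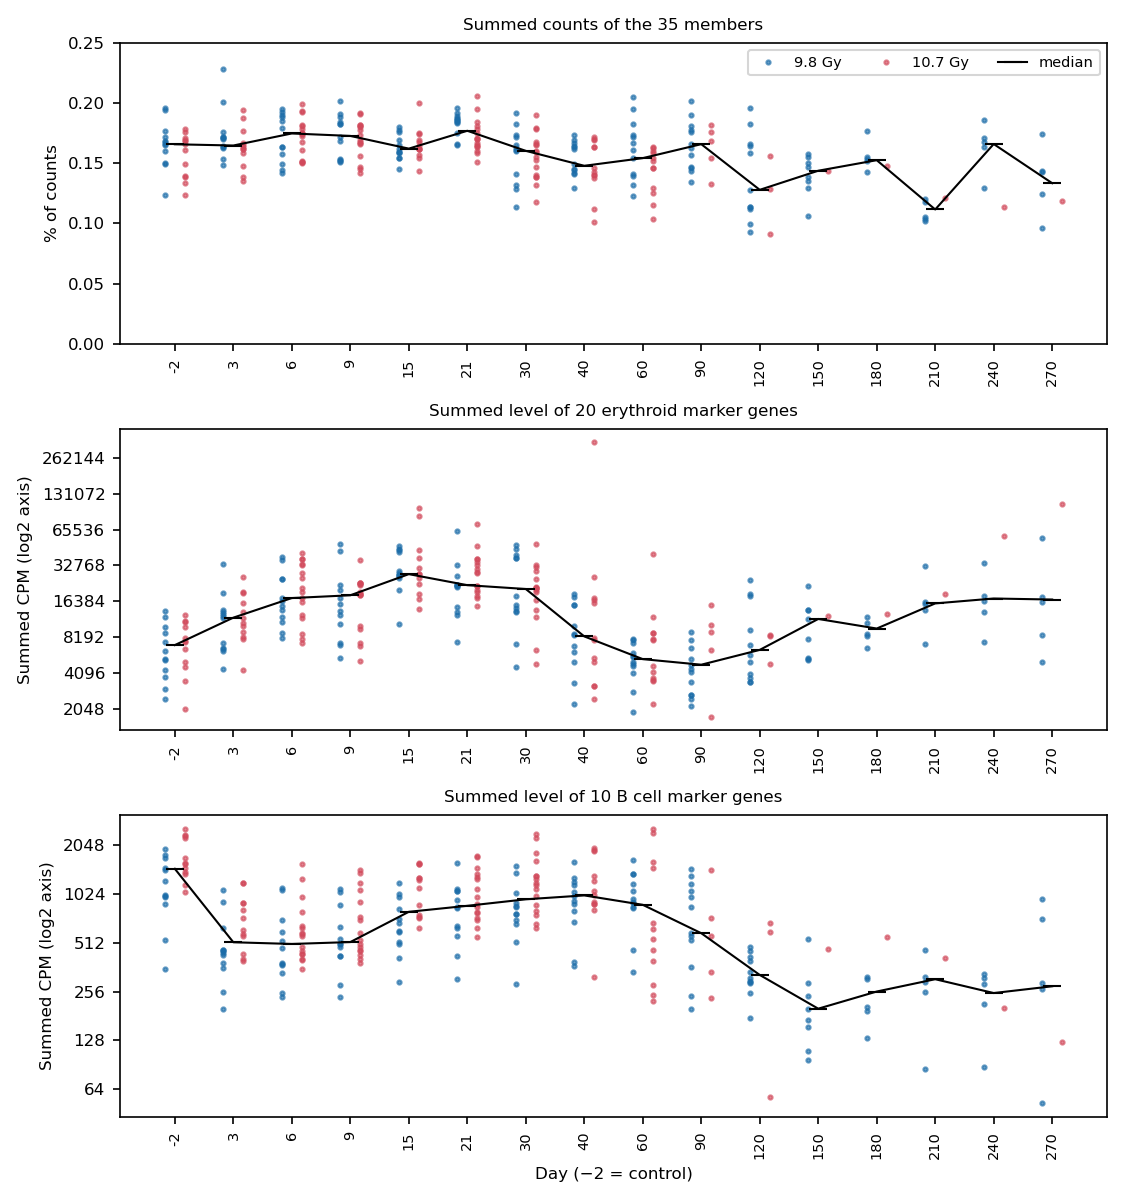
Share of all counts held by the 35 members (top, %), and summed CPM of 20 erythroid (middle) and 10 B cell markers (bottom, log2 axes) in every library by day, coloured by dose, with the median of each day as a line. Of the days with at least 6 samples, the member share is lowest on Day 210 (median 0.112%), the erythroid markers have a high point on Day 15 (median 27732 CPM), and the B cell markers stay low from Day 120 on.

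The genes around the proteasome were counted from lists that lie outside the rule, and they have the same background as the members in each window. Of the immune subunits and the PA28 activator, PSME2 (0.36), PSME1 (0.21) and PSMB10 (0.14) rose in the early window on the log2 scale and PSMB8 (0.00) and PSMB9 (-0.04) were not called. No gene of this list was called in the medium window, where PSME2 had 0.17 and PSMB8 -0.12. In the late window PSMB9 rose (0.42 ± 0.13), whereas PSMB10 (-0.34) and PSME1 (-0.30) fell. Of 5 assembly factors of the 20S core, POMP rose early (0.36) and PSMG4 had the lowest value (-0.05); late, PSMG4 (-0.78) and PSMG3 (-0.45) fell and PSMG1 had -0.11. PSMG4 also fell in the medium window (-0.25; 0.024 in animals with a control of the same series), where POMP had 0.07. Of 7 other subunits and regulators, PSMF1, an inhibitor of the core, rose early (0.43) with PSME4 (0.24), and ADRM1, a ubiquitin receptor, had -0.10. PSME4 rose and USP14 fell in the medium window (0.16 and -0.13), and SEM1 and USP14 fell late (-0.52 and -0.43) while PSME4 rose (0.20).

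Of 4 genes for ubiquitin and its activating enzymes, RPS27A (0.75) and UBB (0.72), which encode ubiquitin, rose in the early window and UBA1, the main activating enzyme, fell (-0.25). RPS27A rose in the medium (0.99) and late (0.73) windows as well, whereas UBB was not called in either (-0.0006 and 0.01). The level of RPS27A was low, with a median of 4.10 CPM in the 24 control samples, against 1555 CPM for UBB. UBA1 fell in the medium window (-0.19), and in the late window UBA6, the other activating enzyme, had the lowest value (-0.01) without being called. Of the list for the NFE2L1 pathway, which raises proteasome genes when the proteasome is impaired, 3 of 4 genes were tested, without DDI2. NFE2L1 fell early (-0.22) and was not called later (-0.09 and -0.10). NGLY1 was not called in any window (-0.06, -0.02 and -0.0009). NFE2L2, a separate factor listed beside NFE2L1, rose in each window (0.19, 0.19 and 0.41). Of 8 genes for shuttles and extraction, RAD23B rose in each window (0.32, 0.23 and 0.28), and UBQLN4 (-0.27 early and -0.55 late) and VCP (-0.38 in the medium window), the ATPase that extracts substrates, were lowest.

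Annotated genes overlapped 9 members, 8 of them on the opposite strand. On the same strand LOC114671172 overlapped PSMD9. LOC114671172 was not among the tested genes, and its part in the counts of PSMD9 was not tested. Although the libraries were stranded, whether the counting used the strand is not given in the sources used here. Copies or pseudogenes of PSMA3, PSMA6, PSMC1, PSMC5, PSMC6 and PSMD2 are annotated elsewhere in the genome, so that the counting could lose or split shared reads. A copy of PSMC6 and a copy of PSMA6 were counted in the table, with a median of 2 counts per sample each.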

How the data were processed

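RNA was sequenced in 304 whole blood samples of 28 rhesus macaques. The authors removed adapters, aligned the reads to Mmul_10 and counted them per RefSeq gene, and the submitters' processing notes name cutadapt 2.10, STAR 2.7.6a and Subread 2.0.1. The deposited counts are whole and unscaled (21070 genes). A further deposited table with log2 values (16730 genes), which the authors had scaled by the upper quartile, served as an alternative only. Every sample column was mapped to a label.

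The filter kept 13751 genes that reached 3 counts in 80% of the libraries. They were fitted by quasi-likelihood in edgeR 4.0.16 (R 4.3.3). Libraries were scaled by the upper quartile, each animal was a block, and p-values were adjusted by Benjamini-Hochberg over the 13751 genes. Counts of an animal in a window were summed, except in the fit with library series as a covariate. That fit took every library singly, so repeated draws of 1 animal entered as separate samples, and animals without a control were included. The pairing comes from the labels: samples with 1 number are of 1 animal. Called genes had an adjusted p up to 0.05, and those past a fold of 1.5 were counted separately. The standard error was the log2 fold change over the root of its F statistic. CPM used the same scaling. Alternatives were TMM, DESeq2 1.42.0, other count filters (none, or at least 10 counts), no replicate block, the log2 values with limma 3.58.1, samples of 1 library series, and library series as a covariate in limma; leaving out Day 210 or the Day 40 library, the dose difference within series A, and the AGATAA motif, were chosen after seeing the data. The fits were tested on simulated data. Python 3.11.15, pandas 2.3.3, NumPy 2.4.6 and Matplotlib 3.10.9 were used.

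Named with values were, in each class and list, the genes with the highest and lowest log2 fold change in each window, the catalytic subunits, PSMD4, PSMD14 and PSMC3IP. Others were named after their values were seen, and some items are not reported here. The members and lists were chosen with earlier results of these data known, so their directions are no independent evidence.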

Additional observations from a re-analysis of the deposited data

Results flagged for a closer look

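In the 6 groups of 1 dose and 1 day that held 4 to 10 samples, 60 sets of values were tested for a sample far from the others, and 4 stood out, where chance flags about 1 in 20. The dose groups concerned had 5 samples each. On Day 90 PSMD9 was 79.1 CPM in 1 HD animal, against 25.2 to 38.1 CPM in the others. The same animal was the only HD animal on Day 240 and Day 270, where its values were the highest (219 and 338 CPM). Also on Day 90, PSMB7 was 48.5 CPM in another HD animal, against 26.7 to 32.1 CPM. On Day 240 PSMC3 was 14.3 CPM in 1 LD animal, against 21.1 to 23.6 CPM. On Day 270 PSMC3IP was 13.4 CPM in 1 LD animal, against 12.2 to 12.5 CPM.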

How the results depend on the processing

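Of 65 single-gene results, 35 were called in the same direction under each alternative tried, not counting the fits that left out 1 animal. Over these alternatives there were 541 values, of which 461 were called in the same direction, 78 did not pass the threshold and 2 reversed. The cause of the differences was not tested. The animal as a block was left out as a check of the pairing. Without the replicate block 13 members were higher and 1 lower in the early window, 5 and 6 in the medium, 3 and 11 in the late, and 3 and 17 between late and early. Leaving out 1 of 14 animals in the late window gave 2 to 3 higher and 7 to 12 lower.

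With TMM scaling 1 member was lower in the early window and on Day 15, 6 were higher in the late window, 5 between late and early (median -0.16) and 3 on Day 120. With DESeq2 6 were higher in the late window (median 0.078) and between late and early (median -0.12), 4 on Day 120, 5 on Day 240 with 1 lower, and 2 on Day 270 with 1 lower. Without a filter 6 were higher in the late window and 6 between late and early (median -0.13), and the deposited log2 values gave 5 in the late window.

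With library series as a covariate 1 member was lower in the early window, 0 were higher and 1 lower in the medium, and 5 were higher in the late window. This fit took every library singly instead of summed counts, so its unit differs from that of the main fit. By day it gave 7 higher on Day 15, 3 higher and 1 lower on Day 30, 2 lower on Day 40, 1 higher and 0 lower on Day 60, and 9 higher and 1 lower on Day 90. It gave 10 higher on Day 120, 9 higher on Day 150, 1 lower on Day 180, 13 higher and 3 lower on Day 240, and 6 higher and 5 lower on Day 270. In the 4 animals with medium and control samples of the same series, all of them HD, 0 members were lower, the median was 0.24, and PSMA5 (0.19) and PSMG4 (0.024) reversed. For the late window this setting was not run, since 1 animal had both.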
